A study of Homo sapiens with 6 samples.

Results

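The libraries described here are the 3, of 6 in the series, whose treatment label names the BTN1A1 expression vector. They were chosen by that label alone. One was made from cells given interferon-gamma at 100 ng/ml for 24 h, one from cells given it for 48 h, and one from cells left without interferon-gamma, whose title carries 48 h. The other 3 libraries hold the same conditions with the empty vector (EV). The labels call both sets PC3, a human prostate carcinoma line that was taken from bone, and both were transfected cultures grown in DMEM/F12 medium with serum. The labels do not say whether a culture was 1 clone or a pool, and they name no promoter for the vector. RNA was counted on the nCounter PanCancer IO 360 panel, which counts fluorescent barcodes hybridised to single RNA molecules without amplification. Each group held 1 library, so a difference between a pair of libraries has no replicate check, and the untreated library serves both times.

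BTN1A1 is a butyrophilin, a membrane protein related to the B7 ligands that T cells recognise. Interferon-gamma is a T cell and NK cell cytokine. It binds the receptor chains IFNGR1 and IFNGR2, the kinases JAK1 and JAK2 phosphorylate STAT proteins, and the STAT dimer binds GAS elements in promoters such as that of the transcription factor IRF1. IRF1 and the complex of STAT2 with IRF9 then bind a second element, the ISRE, in front of genes of antigen presentation and antiviral defence. In epithelial tumour cells this programme is known for raising class I and class II HLA, the immunoproteasome, the CXCR3 ligand chemokines and PD-L1. Of the 770 probes 0 targeted BTN1A1 itself, so the level of the transfected gene was not measured.

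The cultures were first set against their label. PC3 is known to lack STAT3, a transcription factor of cytokine signalling. STAT3 had 593, 444 and 383 counts in the libraries labelled BTN1A1 (24 h, 48 h, untreated), against 10, 17 and 20 in the EV libraries. The epithelial adhesion genes EPCAM and CDH1 went the other way. EPCAM had 29, 59 and 39 counts and CDH1 26, 31 and 28 in the libraries labelled BTN1A1, against 242, 210 and 235 (EPCAM) and 197, 145 and 185 (CDH1) with EV. Of 4 epithelial markers on the panel, 0, 2 and 0 stood above background in the libraries labelled BTN1A1, against 3, 4 and 4 with EV. These levels go against the label that gives both sets 1 origin. The cultures are therefore called the libraries labelled BTN1A1, and the vector and the origin of the cells cannot be told apart in any comparison with EV.

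Background was read from 82 probes for lymphocyte and myeloid cell markers (41 for T and NK cells, 41 for B and myeloid cells), genes that a carcinoma culture should lack. Their summed level was 1475, 2102 and 1476 scaled counts in the libraries labelled BTN1A1 (24 h, 48 h, untreated), and 1737, 1883 and 2394 with EV, and 0 of them had a count of 0 in any library. Scaled counts are the deposited counts divided by a factor from the 20 panel housekeeping genes. Total counts were 297242, 221633 and 290097, against 286341 to 441611 with EV. The floor was 42.8 scaled counts, the highest 90th percentile of the marker probes over the 3 libraries labelled BTN1A1, reached at 48 h. The same floor was used with EV, where that percentile was 53.3 in the untreated library and 10 of the T and NK and 6 of the B and myeloid probes lay at or above the floor. Values under it were raised to it, genes under it in both libraries were not assessed, and a difference with 1 library under it is a lower bound. Of the 770 probes 367 were under the floor in all 3 libraries labelled BTN1A1.

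**Figure D1:**
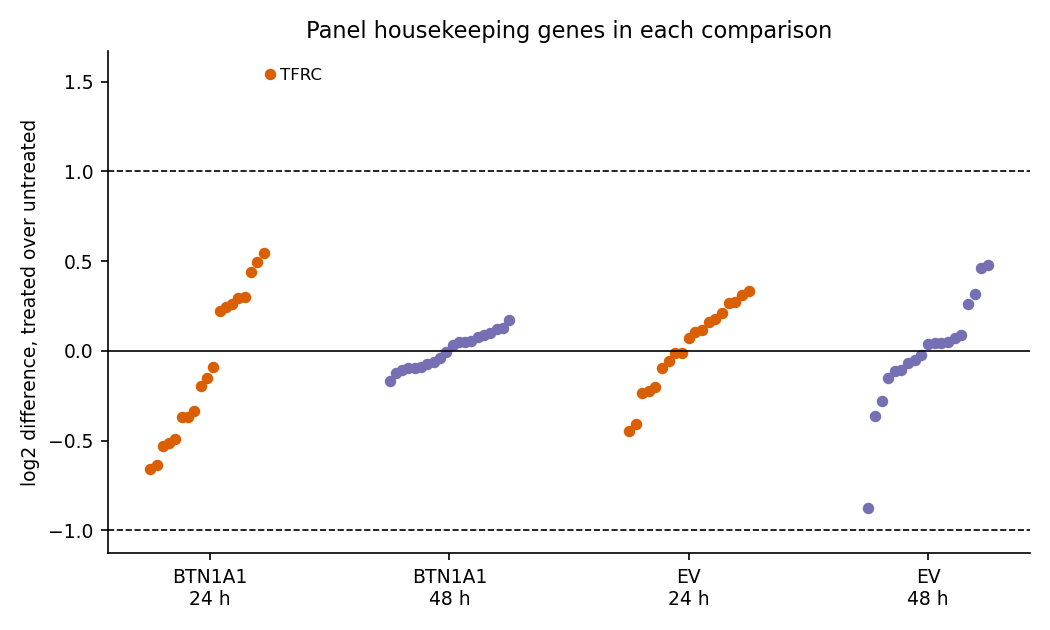
Log2 difference (y axis) of each panel housekeeping gene, treated over untreated, in the 4 comparisons (x axis), 1 point per gene sorted by value, with dashed lines at 2-fold. In the libraries labelled BTN1A1 the 20 genes lie between -0.17 and 0.17 at 48 h and between -0.66 and 1.54 at 24 h, where TFRC is the highest.

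The 3 libraries did not stand equally far apart. Over 166 probes with at least 200 counts in both libraries, the log2 differences of 48 h over untreated had a median size of 0.09 and an SD of 0.32, where counting error alone gives an SD of 0.09. Over 171 such probes the median size was 0.34 and the SD 0.55 at 24 h. The housekeeping genes had an SD of 0.10 at 48 h and 0.54 at 24 h. TFRC, the transferrin receptor and one of them, had 1417, 432 and 486 scaled counts (24 h, 48 h, untreated), so the 24 h library alone was high. The 24 h library thus departs from both others in many genes outside the interferon programme. It is also the library whose labelled culture time differs from that of the untreated one, so treatment and culture time cannot be told apart at 24 h.

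At 48 h, 13 of the 401 assessed genes stood at least 2-fold above the untreated level and 0 stood 2-fold below it in the libraries labelled BTN1A1, which is 3.24% and 0% of the genes assessed. The median log2 difference over the 401 was 0.08. The other 388 lay within 2-fold. At 24 h, 340 genes could be assessed, and 15 of them (4.41%) reached 2-fold upward and 14 (4.12%) downward, around a median of -0.12. The same rule with EV gave 77 of 465 genes higher (16.6%) and 24 lower (5.16%) at 24 h, and 95 of 470 higher (20.2%) and 11 lower (2.34%) at 48 h. The 48 h count depends on the floor, since the marker probes were also higher in scaled counts in that library. Before scaling their median was 18 counts both at 48 h and untreated, and the scaling factors were 0.816 and 1.12. A floor of 20 gave 31 genes higher, and a floor of 50 gave 12.

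**Figure D2:**
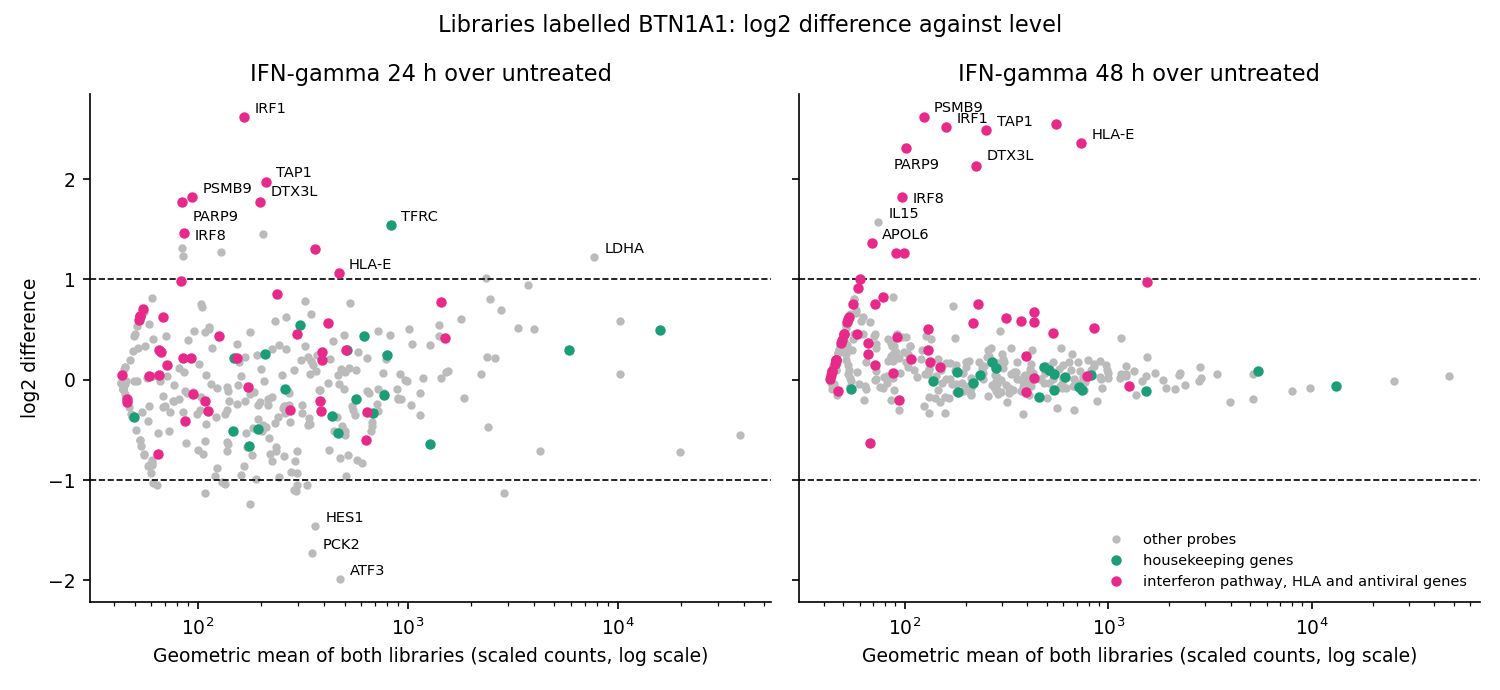
Log2 difference of 24 h over untreated (left) and 48 h over untreated (right) in the libraries labelled BTN1A1 (y axis) against the geometric mean of the 2 libraries in scaled counts (x axis, log scale), 1 point per assessed gene, dashed lines at 2-fold. At 48 h the housekeeping genes (green) lie near 0 and the points above 2-fold are nearly all interferon pathway, HLA and antiviral genes (magenta), while at 24 h 14 genes lie below the lower line.

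A test that spans all genes was possible only by pooling both treated libraries of a vector as replicates of treatment in a model of vector, treatment and their product over the 6 libraries. In this model 7 of 669 genes rose in the libraries labelled BTN1A1 (1.05%) and 0 fell (0%; 17 genes had an unadjusted p under 0.05), by the quasi-likelihood test of edgeR, with p-values adjusted after Benjamini and Hochberg. With EV the same model had 69 genes higher (10.3%) and 7 lower (1.05%). Among the 7 were IRF1, with a log2 difference of 2.57 (SE 0.59), PSMB9 with 2.27 (SE 0.56), TAP1 with 2.25 (SE 0.56), IFIT3 with 2.07 (SE 0.59), PARP9 with 2.06 (SE 0.56) and DTX3L with 1.96 (SE 0.54). The edgeR adjusted p was 0.00913 for IRF1, 0.0141 for PSMB9 and TAP1, 0.0301 for PARP9, 0.0351 for DTX3L and 0.0467 for IFIT3. These p-values rest on the 24 h to 48 h difference within each vector, which is the only residual of the model. They measure no spread between replicate cultures. With 2 residual degrees of freedom they also lean on dispersion shared across the genes. The count was 1 without the 48 h library, 3 without either treated EV library and 0 with TMM scaling or a minimum of 50 counts; with the libraries labelled BTN1A1 alone it was 6.

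The promoters of the 3 largest increases in that test are shown to set their letters beside the elements through which interferon-gamma is known to act. Each is the RefSeq window of 250 bases before to 50 after a gene's start in GRCh38.p14, read 5′ to 3′ on the gene's strand, with matches in capitals. The search, on both strands, was for the GAS core TTCNNNGAA and for the ISRE core, GAAA, any pair of bases and again GAAA. IRF1 lies on the minus strand of chromosome 5 (chr5:132490724-132491023), TAP1 on the minus strand of chromosome 6 (chr6:32853655-32853954) and PSMB9 beside it on the plus strand (chr6:32853942-32854241).
IRF1: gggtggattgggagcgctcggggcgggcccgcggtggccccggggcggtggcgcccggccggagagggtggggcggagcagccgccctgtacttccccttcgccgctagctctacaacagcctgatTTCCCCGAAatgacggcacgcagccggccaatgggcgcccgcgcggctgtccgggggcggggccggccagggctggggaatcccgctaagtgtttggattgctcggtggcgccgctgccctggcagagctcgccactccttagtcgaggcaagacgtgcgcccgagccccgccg
TAP1: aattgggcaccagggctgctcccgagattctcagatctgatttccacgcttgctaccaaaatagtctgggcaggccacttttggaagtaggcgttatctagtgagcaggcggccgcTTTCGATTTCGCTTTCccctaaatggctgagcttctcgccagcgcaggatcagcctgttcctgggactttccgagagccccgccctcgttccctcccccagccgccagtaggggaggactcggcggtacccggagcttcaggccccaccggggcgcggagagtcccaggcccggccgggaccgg
PSMB9: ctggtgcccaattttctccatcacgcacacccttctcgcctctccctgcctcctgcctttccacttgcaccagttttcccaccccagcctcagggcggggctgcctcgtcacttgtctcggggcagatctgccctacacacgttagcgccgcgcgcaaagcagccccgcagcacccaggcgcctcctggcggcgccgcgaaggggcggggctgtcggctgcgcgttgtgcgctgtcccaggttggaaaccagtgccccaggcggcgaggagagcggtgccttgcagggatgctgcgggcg

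The IRF1 window holds 1 GAS match, TTCCCCGAA, that begins 124 bases before the start. The TAP1 window holds 2 overlapping ISRE matches that begin 134 and 128 bases before the start, and a second TAP1 window in the table (chr6:32852712-32853011) holds 1 GAS match. The PSMB9 window holds 0 matches of either kind. It overlaps the TAP1 window shown above, whose ISRE matches (chr6:32853823-32853838) lie upstream of the PSMB9 window and outside it. The windows of PARP9 and DTX3L, neighbours that are read in opposite directions, overlap and share 1 ISRE match at chr3:122564332-122564341, while a second PARP9 window (chr3:122564735-122565034) holds 0 matches and does not overlap that of DTX3L. Both windows of IFIT3 hold 2 ISRE matches. Of 35116 RefSeq windows 7.66% hold the GAS core and 3.57% the ISRE core, and of the 858 windows of genes on the panel 8.39% and 8.86%. A match is a description of letters and not evidence of binding.

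The receptor and its kinases were measured well above background and changed little. IFNGR1, the ligand-binding chain, had 512, 797 and 776 scaled counts (24 h, 48 h, untreated) and IFNGR2, its partner chain, 345, 433 and 428. JAK1 had 354, 376 and 409 and JAK2 90.3, 87.1 and 99.8. All 4 stayed within 2-fold at both times, from -0.60 (IFNGR1 at 24 h) to 0.04 (IFNGR1 at 48 h) on the log2 scale. STAT2 had 169, 262 and 177 scaled counts, a log2 difference of 0.56 at 48 h, and its partner IRF9 66.4, 80.9 and 41.9, at least 0.92. Of 10 receptor, kinase and STAT genes on the panel, 10 were above the floor in at least 1 library labelled BTN1A1. Of these, 1 of 8 assessed at 24 h and 1 of 10 at 48 h was at least 2-fold higher, with list medians of -0.11 and 0.30. One call among so few genes is not read as a result about the list, beside 4.41% and 3.24% of all genes assessed. The feedback inhibitor SOCS1 stood under the floor in every library labelled BTN1A1, at 13.6, 14.7 and 13.4 scaled counts, against 218, 88.5 and 26.7 with EV. Of 3 feedback inhibitors 2 were assessed and 0 reached 2-fold at either time.

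Among the interferon regulatory factors, IRF1 and IRF8 were at least 2-fold higher at both times. IRF1 had 411 and 384 scaled counts at 24 h and 48 h, against 66.9 untreated. Its log2 difference was 2.62 at 24 h (95% counting interval 2.27 to 2.99) and 2.52 at 48 h (2.15 to 2.90). These intervals are exact Clopper-Pearson ones and cover counting error only, here and below. Both treated libraries were about equally high, and with EV the log2 differences were 4.77 and 5.33. IRF8, a factor best known from myeloid and B cells, had 142 and 183 scaled counts, against 51.7 untreated, a log2 difference of 1.46 (1.02 to 1.92) at 24 h and 1.82 (1.37 to 2.28) at 48 h. In the EV libraries IRF8 was under the floor, at 5.52, 10.2 and 18.5. In edgeR's test within the libraries labelled BTN1A1 IRF8 had a log2 difference of 1.65 (SE 0.60) and did not pass (adjusted p 0.416). Of 10 genes in this list 2 of 6 assessed at 24 h and 2 of 8 at 48 h reached 2-fold, with medians of 0.54 and 0.48, beside 4.41% and 3.24% called and medians of -0.12 and 0.08 over all genes assessed. IRF2 (-0.22 and 0.30), IRF3 (0.22 and 0.13) and IRF7 (not assessed at 24 h, at least 0.46 at 48 h) did not.

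The class I presentation genes did not change alike. The peptide transporter subunit TAP1 had 417 and 595 scaled counts at 24 h and 48 h, against 106 untreated, a log2 difference of 1.98 (1.68 to 2.28) and 2.49 (2.19 to 2.79). PSMB9, a catalytic subunit of the immunoproteasome, had 176 and 308, against 49.9 untreated, a log2 difference of 1.82 (1.39 to 2.27) and 2.62 (2.20 to 3.07). HLA-E, the class I molecule read by NK cell receptors, had 677 and 1663, against 324 untreated, a log2 difference of 1.07 (0.88 to 1.25) and 2.36 (2.19 to 2.53). For these 3 genes both treated libraries were above the untreated one, and the 48 h library was the higher. HLA-E missed the threshold of edgeR's test (log2 difference 1.85, SE 0.55, adjusted p 0.0585). TAPBP, which bridges the transporter to empty class I molecules, had 117 and 141 scaled counts, against 58.8 untreated, log2 differences of 0.99 and 1.26. TAP2, the other transporter subunit, had log2 differences of 0.85 and 0.75, and B2M, the class I light chain, 0.78 and 0.98. These stayed under 2-fold, B2M at 48 h just so.

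HLA-B and HLA-C, heavy chains that present peptides to T cells, were less changed than these. HLA-B had 570 and 1020 scaled counts at 24 h and 48 h, against 712 untreated. HLA-C had 347 and 387, against 253 untreated. Neither reached 2-fold at either time, with 48 h log2 differences of 0.52 for HLA-B and 0.61 for HLA-C, against 4.52 (HLA-B) and 2.99 (HLA-C) with EV. Probes of class I genes can bind related copies, so these are uncertain as single genes. The immunoproteasome partners of PSMB9 were at or near background. PSMB8 had 19.6 and 20.8 scaled counts, against 13.4 untreated, all under the floor, while with EV it had 2749 and 3371, against 363 untreated. PSMB10 reached 29.0 and 49.0, against 17.8 untreated, over the floor at 48 h alone, and its 48 h log2 difference was at least 0.20 and, with a floor of 20, at least 1.29. PSMB5, the constitutive subunit that PSMB8 replaces, had 1737 and 1242, against 1301 untreated, and log2 differences of 0.42 and -0.07. Of 15 class I and loading genes on the panel, 3 of 10 assessed at 24 h and 4 of 12 at 48 h were called higher at 2-fold and 0 lower, beside 4.41% and 3.24% of all genes assessed, with medians of 0.82 and 0.68. With EV these counts were 12 and 13 of 15, beside 16.6% and 20.2%, with medians of 2.07 and 2.34.

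**Figure D3:**
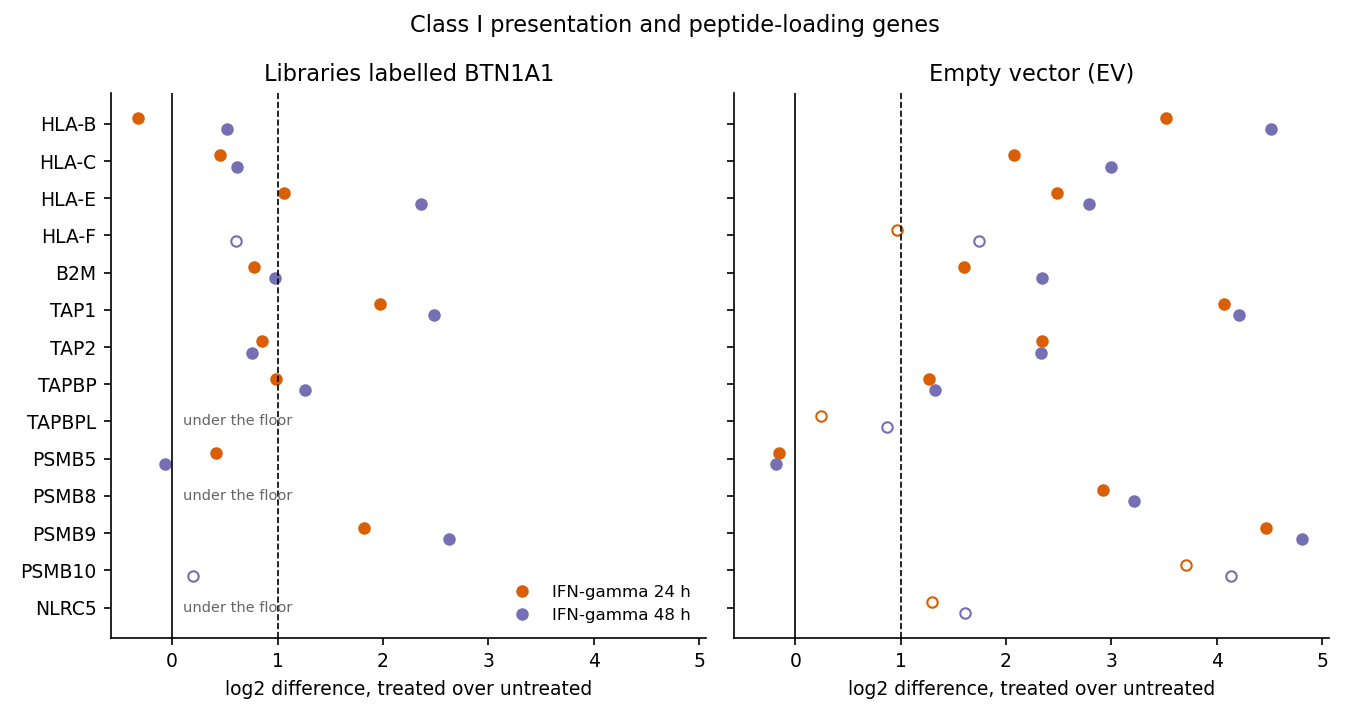
Log2 difference, treated over untreated (x axis), of class I presentation and peptide-loading genes (rows) at 24 h (orange) and 48 h (violet) in the libraries labelled BTN1A1 (left) and with the empty vector (right). Open circles are lower bounds with 1 library under the floor and the dashed line marks 2-fold. TAP1, PSMB9 and HLA-E lie past 2-fold at both times on the left while HLA-B and HLA-C do not.

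Class II genes were near background. Of 14 on the panel, 4 were assessed at 24 h and 9 at 48 h, 0 of them 2-fold higher or lower, with medians of -0.03 and 0.20. Over all genes assessed 4.41% were higher and 4.12% lower at 24 h, and 3.24% and 0% at 48 h. With so few class II genes assessed, 0 calls is not read as a result about the list. HLA-DRA had 15.3 and 15.9 scaled counts, against 17.8 untreated, and CD74, the invariant chain, 40.0 and 66.2, against 31.2 untreated. The 48 h log2 difference of CD74 was at least 0.63, and it passed 2-fold with a floor of 20 (1.09) and after background subtraction (1.09). With EV HLA-DRA had 456 and 1671, against 23.7 untreated.

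Among 34 antiviral and interferon-induced effectors, 17 were assessed at 24 h and 20 at 48 h. Of these 2 and 5 reached 2-fold upward and 0 downward, beside 4.41% and 3.24% of all genes assessed, and the medians were 0.28 and 0.57, beside -0.12 and 0.08. With EV 28 of 33 were 2-fold higher at each time, beside 16.6% and 20.2% of all genes assessed with EV, with medians of 2.28 and 2.94. PARP9 and DTX3L, which form a complex of an ADP-ribosyltransferase and a ubiquitin ligase, were the 2 at both times. PARP9 had 155 and 226 scaled counts, against 45.5 untreated, log2 differences of 1.77 (1.31 to 2.25) and 2.31 (1.86 to 2.79). DTX3L had 365 and 470, against 107 untreated, log2 differences of 1.77 (1.47 to 2.07) and 2.13 (1.83 to 2.44). The 2 genes moved by similar amounts, and the treated libraries were high in both.

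The other 3 of the 5 stood closer to the floor. IFIT3, an antiviral protein with tetratricopeptide repeats, had 64.7 and 85.8 scaled counts, against 17.8 untreated, a log2 difference of at least 0.60 at 24 h and just past 2-fold at 48 h. APOL6, an apolipoprotein L family member, had 34.1 and 110, against 18.7 untreated, at least 1.37 at 48 h. IFIH1, the RNA sensor MDA5, had 66.4 and 154, against 64.2 untreated, and so was high at 48 h only (log2 difference 1.27, 0.84 to 1.71). SAMD9, an antiviral protein, had 66.4 and 72.3, against a level under the floor untreated, at least 0.63 and at least 0.76. IFI16 (0.28 and 0.57), IFITM1 (-0.30 and 0.58), IFI35 (0.62 and 0.75), EIF2AK2, the kinase PKR (0.29 and 0.47), and ISG15 (0.30 and 0.82) were measured above the floor and stayed within 2-fold. HERC6, a ubiquitin ligase of the interferon response, had 50.3 and 53.9 scaled counts, against 83.8 untreated, log2 differences of -0.74 and -0.64.

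**Figure D4:**
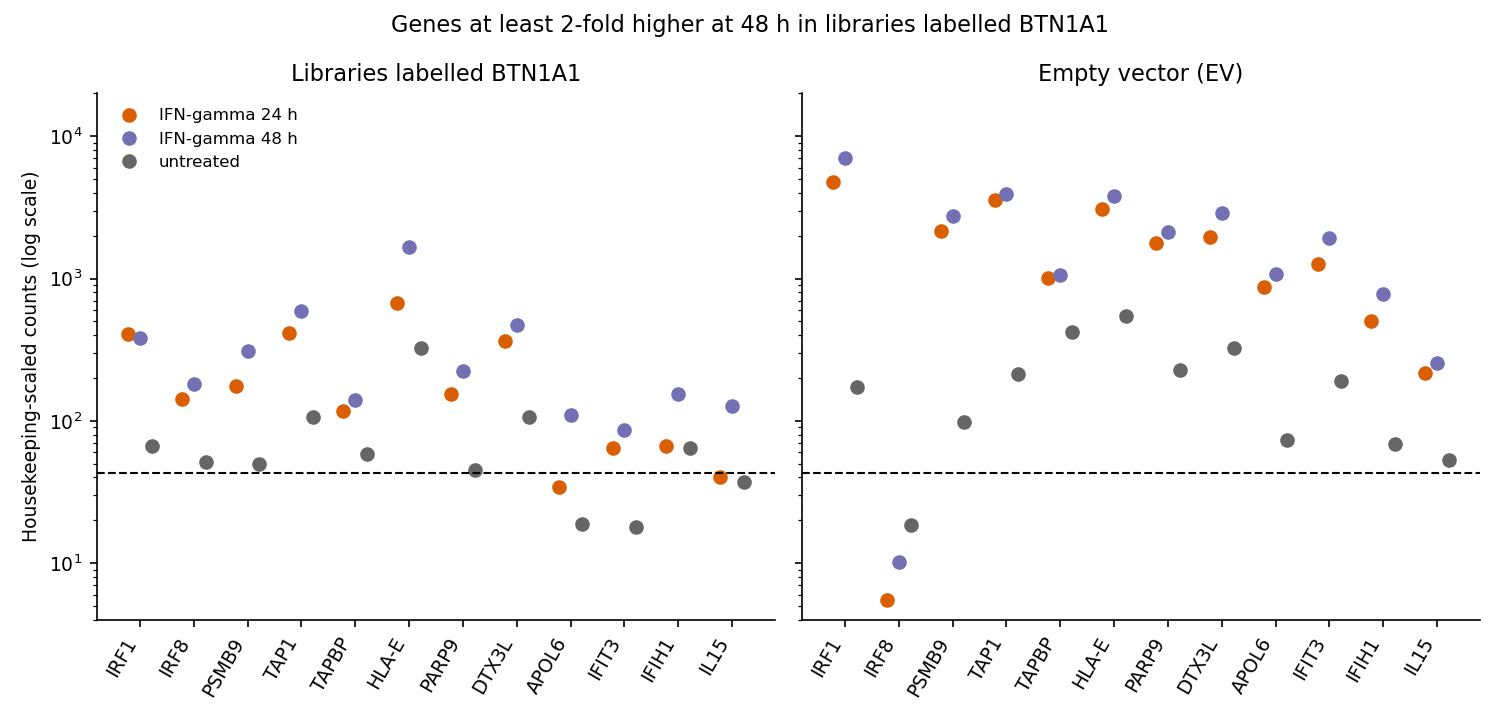
Scaled counts (y axis, log scale) of 12 of the 13 genes at least 2-fold higher at 48 h in the libraries labelled BTN1A1 (left) and of the same genes with the empty vector (right), at 24 h (orange), 48 h (violet) and untreated (grey), 1 library per point, dashed line at the floor of 42.8. IRF1, IRF8, PSMB9, TAP1, HLA-E, PARP9 and DTX3L are high at both times on the left, IRF8 is under the floor on the right, and the other 11 are higher with interferon-gamma in both.

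Many of the most inducible genes of the EV cultures were at the level of the immune marker probes in the libraries labelled BTN1A1. IDO1, the enzyme that degrades tryptophan, had 22.1 and 45.4 scaled counts, against 30.3 untreated, while with EV it had 6798 and 11695, against 57.6 untreated. GBP1, an interferon-induced GTPase, had 12.8 and 27.0, against 7.13 untreated, and GBP2 17.9 and 34.3, against 24.1 untreated. The third GTPase, GBP4, had 29.0 and 45.4, against 23.2 untreated, which just touches the floor at 48 h. All 11 chemokines of the interferon list, among them CXCL9, CXCL10 and CXCL11, were under the floor in the 3 libraries, CXCL10 at 13.6 and 8.58, against 8.02 untreated. CD274 (PD-L1) had 5.96 and 22.1, against 12.5 untreated, and ICAM1, the adhesion ligand of T cells, 10.2 and 13.5, against 12.5 untreated. OAS1 and MX1, antiviral proteins, were under the floor too, at 9.37 and 13.5 (OAS1) and 11.1 and 15.9 (MX1), against 10.7 and 7.13 untreated. At these levels a rise smaller than the distance to the floor was not detectable.

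**Figure D5:**
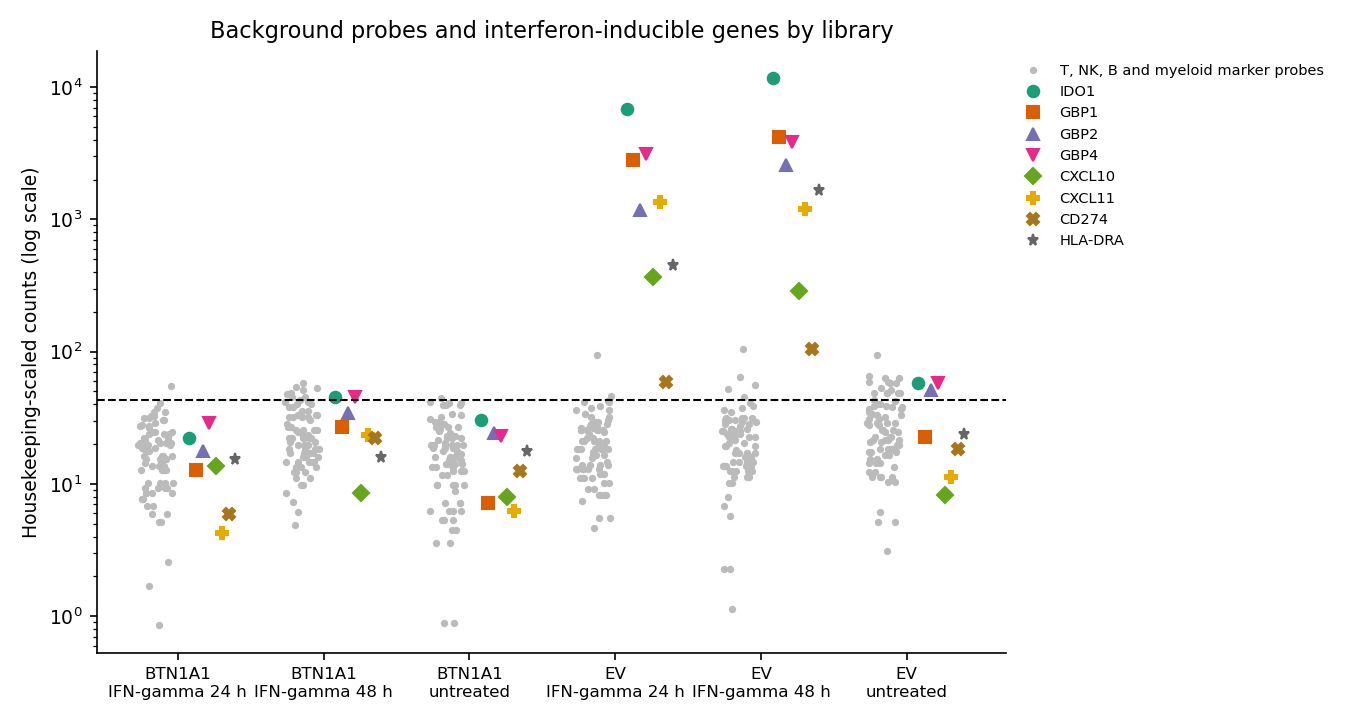
Scaled counts (y axis, log scale) of the 82 T, NK, B and myeloid marker probes (grey points) and of 8 interferon-inducible genes (coloured symbols) in each of the 6 libraries (x axis), dashed line at the floor of 42.8. In the libraries labelled BTN1A1 the 8 genes lie among the marker probes in every condition, with IDO1 and GBP4 at 45.4 the only ones over the floor. With the empty vector most of the 8 lie above the marker probes after interferon-gamma, while CD274 passed 2-fold there at 48 h only.

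Outside these groups, 1 gene was at least 2-fold higher at 48 h. IL15, a cytokine that maintains NK and memory T cells, had 40.0 and 128 scaled counts, against 37.4 untreated, a log2 difference of at least 1.58 at 48 h. Of 32 NF-kB and inflammatory genes 10 were assessed at 24 h and 12 at 48 h, and IL15 was the only one past 2-fold. Of 22 checkpoint and tryptophan genes 8 and 11 were assessed, and 0 were 2-fold higher at either time, while PVR was 2-fold lower at 24 h. Over all genes assessed 4.41% were higher and 4.12% lower at 24 h, and 3.24% and 0% at 48 h. Beside these shares the counts are not read as a result about either list. No list of proliferation (30 assessed), hypoxia and glycolysis (20), matrix (18), Notch and Wnt (13), apoptosis (14), stress (9), early response (14) or TGF-beta genes (8) had a member past 2-fold at 48 h, and their medians lay between -0.08 and 0.18. That stands beside 3.24% higher, 0% lower and a median of 0.08 over all genes assessed at 48 h.

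At 24 h these lists did hold genes past 2-fold, in both directions. The largest decrease was that of ATF3, a stress-induced transcription factor, with 239 scaled counts at 24 h and 815 at 48 h, against 948 untreated (log2 differences of -1.99 and -0.22). PCK2, the mitochondrial enzyme that makes phosphoenolpyruvate, had 193 and 606, against 639 untreated (-1.72 and -0.08). HES1, a target of Notch, had 218 and 582, against 598 untreated (-1.46 and -0.04). In all 3 the 24 h library alone was low. The other 11 log2 differences lay between -1.24 and -1.02, that of PDGFA a bound. They were the apoptosis regulators BBC3 and BCL2, the poliovirus receptor PVR, the translation repressor EIF4EBP1, the transcription factors CEBPB and NFIL3, the tankyrase TNKS, the kinase subunit PRKAA2, the VEGF receptor FLT1, the growth factor PDGFA and the laminin chain LAMA1. At 48 h their log2 differences lay between -0.34 (NFIL3) and 0.14 (PRKAA2).

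Among the 15 genes at least 2-fold higher at 24 h, 7 lie outside the interferon lists. LDHA, the enzyme that makes lactate, had 11778 and 5224 scaled counts at 24 h and 48 h, against 5038 untreated, a log2 difference of 1.23 at 24 h and 0.05 at 48 h. The mitotic cyclin CCNB1 (1.02 and 0.07), the histone H2AFX (1.46 and 0.06), the chromatin protein HMGB1 (1.27 and -0.03), the death receptor kinase RIPK1 (1.31 and 0.01) and TFRC (1.54 and -0.17) were likewise high at 24 h alone. The adhesion molecule ICAM3 had log2 differences of 1.24 and 0.57. None of these 7 genes and none of the 14 decreases passed edgeR's test over both times. That test takes the 24 h to 48 h difference as residual spread, so it could not decide about genes that moved mainly at 24 h. Housekeeping genes moved with them in the 24 h library, as given above, and the part of that library in these values was not tested. With the housekeeping factor computed without TFRC, 9 genes were at least 2-fold lower at 24 h.

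Whether the response differed from that with EV was tested by the product term of the same model. After adjustment edgeR called 2 of 669 genes as responding more in the libraries labelled BTN1A1 (0.299%) and 28 as responding more in EV (4.19%), where more means a more positive log2 change. Of the genes that rose in the libraries labelled BTN1A1, IRF1 (log2 difference of the responses -2.51, SE 0.75) and PSMB9 (-2.37, SE 0.73) responded less than in EV, while the differences for TAP1 (-1.89, SE 0.72), PARP9 (-1.03, SE 0.71), IFIT3 (-0.997, SE 0.76) and DTX3L (-0.93, SE 0.70) did not pass. The product term of IRF8, 1 of the 2, is not read as a difference of responses, since with EV IRF8 was under the minimum of 20 scaled counts in all 3 libraries. The same holds for CXCL10, HLA-DRA and ICAM1 among the 28, which were under that minimum in all 3 libraries labelled BTN1A1. Antiviral genes that were above the floor but within 2-fold at 24 h in the libraries labelled BTN1A1 also differed, among them IFITM1 (-3.89, SE 0.73), HERC6 (-3.34, SE 0.78), IFI35 (-3.28, SE 0.73), IFI16 (-2.89, SE 0.70) and IFIH1 (-2.44, SE 0.72). Of 9 other settings 4 ended the call for IRF1 and 6 that for PSMB9. Set side by side at 48 h, 12 of the 13 genes higher in the libraries labelled BTN1A1 (92.3%) were among the 95 higher with EV. They make 12.6% of the 95, which are 20.2% of the genes assessed with EV, and the exception was IRF8. Of those 95 genes 35 were under the floor in the libraries labelled BTN1A1, beside 369 of all 770 probes. The other 60 had a median log2 difference of 0.39 there, against 2.40 with EV. At 24 h, 7 of 15 (46.7%) were among the 77 higher with EV (9.09%), which are 16.6% of the genes assessed with EV. Of the 77, 40 were under the floor, beside 430 of all 770 probes. Those 770 include 300 probes at 48 h and 305 at 24 h that were not assessed with EV either. The genes higher with EV had to be above the floor there. The shares under the floor are therefore not like for like, and nothing is read from them.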

How the data were processed

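The series holds 6 libraries, 1 per group, on a panel of 770 probes. The deposited values are whole-number counts per probe (4620 of 4620), and the sources used here do not say whether the authors scaled or background-corrected them. Control probes were not used here. Names were matched to RefSeq (GRCh38.p14): 756 were current symbols, 6 synonyms and 8 neither. Counts were divided by a factor from the geometric mean of 20 housekeeping genes, floored at 42.8 scaled counts (90th percentile of 82 marker probes), and called at 2-fold between libraries, with no test. Intervals are exact Clopper-Pearson ones at 95%. edgeR 4.0.16 (R 4.3.3) fitted vector, treatment and their product to the 669 genes that reached 20 scaled counts in 2 or more libraries. Dispersions came from edgeR's own estimation (common value 0.0780) and its quasi-likelihood fit, with Benjamini-Hochberg adjustment and a threshold of 0.05. SE is the log2 difference over the square root of F. DESeq2 1.42.0, TMM, equal medians, other floors, no filter and left-out libraries were alternatives. The edgeR script was tested on simulated data.

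Genes were named by a rule. It took, per time, the 10 largest increases and 10 largest decreases past 2-fold, every gene past the edgeR threshold within the libraries labelled BTN1A1, up to 3 called members of each of 22 lists, and a set of interferon-gamma genes. EPCAM, CDH1, IRF3, PSMB5, IFI16, IFITM1, IFI35, EIF2AK2, HERC6 and the decreases at 24 h beyond the rule were added after their values were seen. Some genes that the rule names are not reported here. Members and lists were chosen with earlier results of these data known.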

Additional observations from a re-analysis of the deposited data

Results flagged for a closer look

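The product term of the edgeR model sets the interferon-gamma response of the libraries labelled BTN1A1 against that of the EV libraries, and the 16 genes given here are among those that passed it. Values are log2 differences of the responses, BTN1A1 minus EV, with Benjamini-Hochberg adjustment in edgeR's quasi-likelihood test. The furthest was IDO1 at -7.19, then GBP1 at -5.84, CXCL11 at -5.76, HLA-DRA at -5.67, GBP4 at -5.25, GBP2 at -5.09, CD74 at -5.00 and CXCL10 at -4.80. All 8 were under the floor or within 2-fold of it in every library labelled BTN1A1, so the size of these terms depends on background. HLA-DRA and CXCL10 were also under the minimum count of the edgeR fit in all 3 libraries labelled BTN1A1. They entered the test through the EV libraries alone, so their terms do not compare measured responses and are not read as differences of responses. HLA-B at -3.94 differed although it was well above the floor in all 3 libraries labelled BTN1A1. PSMB10 (-3.03) was at or near background there. ICAM1 (-3.64) was under the minimum count of the fit in all 3 libraries labelled BTN1A1, as HLA-DRA and CXCL10 were. Its term is likewise not read as a difference of responses.

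IRF1 at -2.51 and PSMB9 at -2.37 rose in both sets of cultures and rose less in the libraries labelled BTN1A1. PSMB8 stood at -2.49, and its call ended in 9 of 9 other settings. IRF8 had a positive product term, 2.90, but it was under the floor and the minimum of 20 in all 3 EV libraries and entered the test through the libraries labelled BTN1A1 alone, so the term does not compare 2 measured responses. ATF3 stood at -3.49, with 239 and 815 scaled counts at 24 h and 48 h, against 948 untreated, in the libraries labelled BTN1A1, and 108 and 783, against 71.0 untreated, with EV. Its call ended in 4 of 9 other settings.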

How the results depend on the processing

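No paired analysis was possible because the labels carry no replicate numbers. The count of 13 genes at least 2-fold higher at 48 h was 31 with a floor of 20 and 21 after background subtraction, and 10 of the 13 genes were called in all 7 other settings (not IFIH1, TAPBP or IFIT3). No gene was 2-fold lower at 48 h except 1, HERC6, after background subtraction and 1, again HERC6, with equal medians. Equal medians gave a 48 h median of -0.36 and TMM one of -0.23, beside 0.08. The 14 genes lower at 24 h were 30 after subtraction and 9 without TFRC among the housekeeping genes, an alternative chosen after seeing the data, and 8 of the 14 were called in all 7 settings, as were 15 of the 15 higher at 24 h. The 7 edgeR calls were 0 with TMM, where 17 genes had p under 0.05 before adjustment, 0 when 50 scaled counts were required (15 before adjustment), 4 without TFRC and 1 to 9 with a library left out (1 without BTN1A1 48 h, 9 without BTN1A1 24 h). A library left out leaves lone samples that are assumed to vary like the others. Of the 2 more positive responses 1 was left with DESeq2, TMM or a minimum of 50 and 0 to 7 with a library left out. The 28 less positive ones were 14 with TMM and 13 to 37 with a library left out. Of 10 other settings the call held in 8 for IRF1, 7 for PSMB9 and TAP1, 4 for PARP9, 3 for DTX3L and 0 for IFIT3. Of 652 log2 differences of named genes 579 moved by less than their interval and 73 moved further. The sign changed in 34, all of main size at most 0.30, and in 0 of those past 2-fold. Under the floor, responses were not detectable.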
